A study of Mus musculus with 384 samples.

Results

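The synaptic vesicle release machinery was followed as a set of 70 genes among the 55331 gene IDs measured in single retinal cells of newborn mice. Members were chosen by gene symbol alone: *Snap25*, the syntaxins (*Stx*), their Munc18 and tomosyn binding partners (*Stxbp*), the VAMPs, the synaptotagmins (*Syt*), the complexins (*Cplx*), the Munc13 (*Unc13*) and RIM (*Rims*) families, *Bsn* and *Pclo*, the synapsins (*Syn*), *Syp*, the *Sv2* genes and the *Rab3* genes. The rule for membership uses no measured value. The series compared cells taken at postnatal day 1 (P1) and postnatal day 5 (P5), before and while the axons of intrinsically photosensitive retinal ganglion cells (ipRGCs) enter the suprachiasmatic nucleus, the circadian clock of the brain.

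At a nerve terminal, a vesicle carrying VAMP meets syntaxin and SNAP-25 on the plasma membrane, and these proteins wind into the SNARE complex that drives fusion. Munc13 helps to set up this complex, complexin holds it, and a synaptotagmin triggers fusion when calcium enters. RIM, Bassoon and Piccolo build the active zone where this happens, while synapsins, synaptophysin, SV2 and Rab3 sit on the vesicles. Retinal ganglion cells carry these proteins to terminals in the brain, and ipRGCs are the ganglion cells that make melanopsin (*Opn4*), a light-sensitive pigment.

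All cells came from Opn4Cre/+; Brn3bzDta/+; Rosa26fsTRAP/+ retinas. Cre made from the *Opn4* locus switches on the TRAP reporter, a GFP-tagged ribosomal protein, and single cells were sorted for GFP and for surface CD90 (Thy1), a ganglion cell antigen. The Brn3bzDta allele places a diphtheria toxin A gene at 1 copy of *Brn3b* (*Pou4f2*), and both ages carried it. This allele is known as a Cre-dependent tool for removing *Brn3b*-expressing ipRGCs, and a cell that survives it may not stand for ipRGCs of an unmodified retina. The labels give 384 cells, as many at P1 as at P5, but name no animal, so each age counted as 1 sample and no test between ages or classes was possible. Intervals below are exact 95% intervals and cover at most counting error. Smart-seq2, a full-length single-cell RNA-seq method, has no molecular identifiers. Copies of 1 molecule thus count as separate fragments, and intervals on CPM do not cover the full counting error.

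Cells with at least 1000 detected genes were kept, 372 in all and 190 of them at P1, which left out 2 P1 and 10 P5 cells. They held 264527 to 1452724 fragments on genes, with medians of 930228 at P1 and 858452 at P5, and a median of 5081 and 6600 detected genes. The 9 ganglion cell markers were found in a median of 80% of P1 and 86.8% of P5 cells, but not evenly. *Pou4f3* was found in 1.05% and 2.2%, *Pou4f1* in 15.8% and 37.9% and *Thy1* in 46.3% and 57.1%, and the rest in at least 75.3%. The 4 ipRGC markers were found in a median of 73.4% and 71.7%, from 45.8% (*Adcyap1*) to 90.5% (*Eomes*) at P1 and from 63.2% (*Tbx20*) to 85.2% (*Eomes*) at P5. Microglial, astrocyte, photoreceptor and bipolar markers were each found in at most 4.95% of the cells of an age. Of the 4 horizontal cell markers, *Onecut2* was found in 55.8% of P1 and 62.6% of P5 cells and *Onecut1* in 24.7% and 22%, while *Calb1* stayed at or under 2.75% and *Lhx1* was at 0. Of the 6 Müller glia markers, *Glul* was found in 33.7% and 59.3% and *Sfrp2* in 33.7% and 44%, and the other 4 in at most 4.4%. Of the 6 amacrine markers, *Gad2* was found in 11.1% and 20.9% and *Slc6a9* in 5.79% and 8.79%, and the other 4 in at most 2.2%. Red blood cell genes, however, were found in a median of 43.7% of P1 cells and 1.65% of P5 cells. The ages also differed in sex transcripts: 150 P1 cells had *Xist* and no Y-linked fragment, against 0 P5 cells, while 26 P1 and 160 P5 cells had Y-linked fragments and no *Xist*. Age, animal and sex therefore cannot be told apart, and the part of the red blood cell RNA in any age difference was not tested.

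Levels of a gene between ages are given as pooled CPM, the fragments summed over the cells of an age per 1000000 summed fragments. Levels between genes are given as FPKM, which is per transcript length. A few members were close to universal, and the median member was found in 37.4% of P1 and 51.1% of P5 cells. In P1 cells 7 of 70 members were found in at least 90% of cells, and in P5 cells 14 were. The number found in at least 50% of cells was 27 at P1 and 36 at P5, and 16 members stayed under 10% at both ages. A P1 cell held a median of 29 members (range 10 to 42) and a P5 cell 36 (range 9 to 46).

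**Figure D1:**
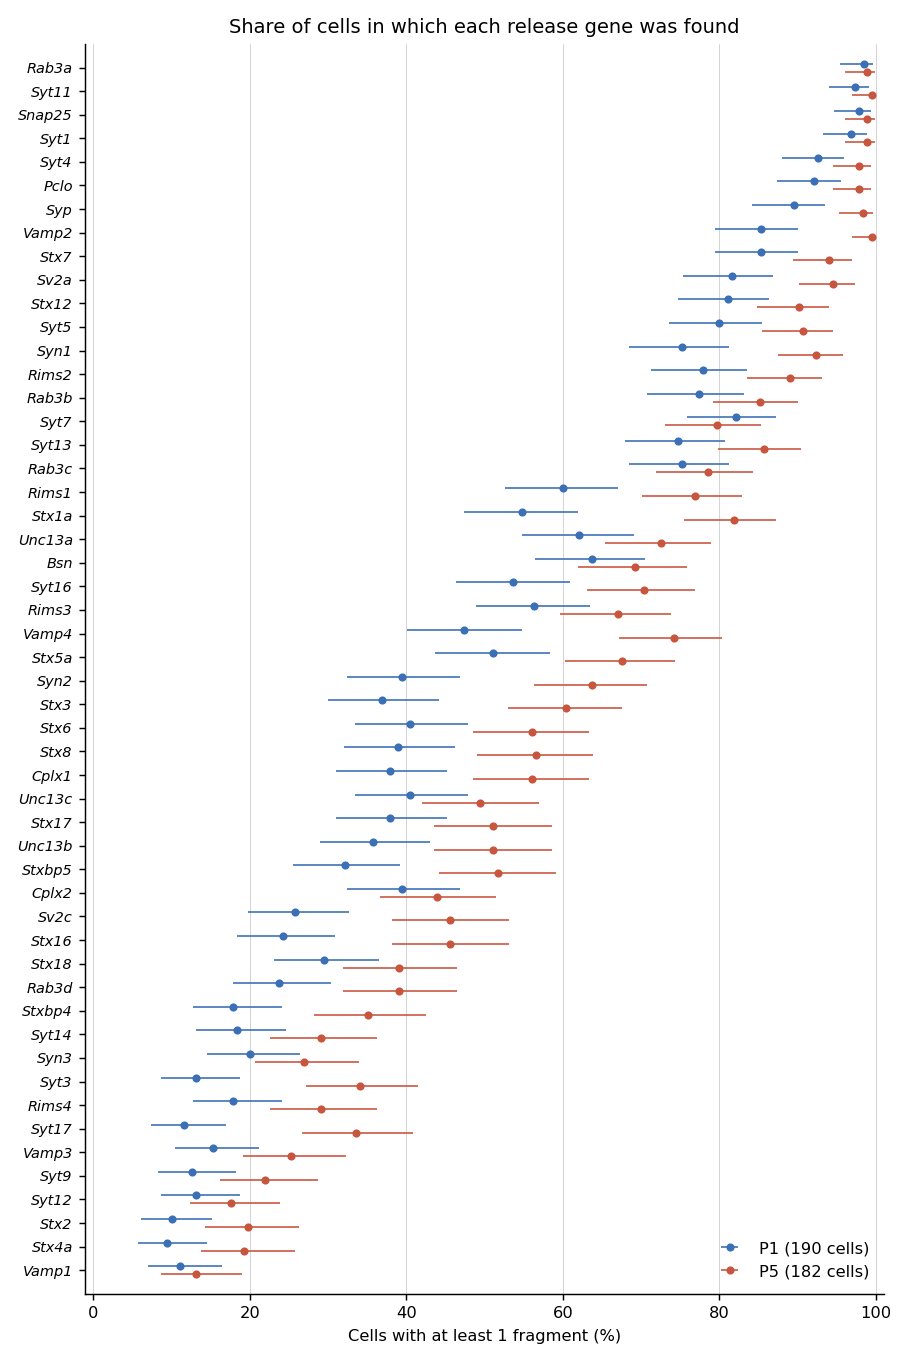
Share of kept cells with at least 1 fragment of a member (x axis, %), for the members reported here that were found in at least 10% of the cells of either age (y axis). Points are P1 (blue) and P5 (red) cells and bars are exact 95% binomial intervals; *Rab3a*, *Syt11*, *Snap25* and *Syt1* sit near 100% at both ages, and *Stx1a* moves from 54.7% to 81.9%.

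The SNARE proteins of synaptic release came first. *Snap25* encodes the plasma membrane SNARE that supplies a pair of the helices of the complex, and had the highest mean FPKM of the members. Its FPKM per cell ran from 0 through a median of 445 to 3222 at P1, and from 0 through 491 to 2128 at P5. It was found in 97.9% of P1 cells (interval 94.7 to 99.4%) and 98.9% of P5 cells (interval 96.1 to 99.9%). The ages overlapped over nearly the whole range of *Snap25*.

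*Vamp2* (chr11:69088490-69092384, plus strand, GRCm38) encodes the vesicle SNARE synaptobrevin 2. Its FPKM per cell ran from 0 through a median of 73.9 to 516 at P1, and from 0 through 102.4 to 511 at P5. It was found in 85.3% of cells at P1 (interval 79.4 to 90%) and in 99.5% at P5 (interval 97 to 100%), so that a lone P5 cell lacked it. Its close relative *Vamp1* was found in 11.1% and 13.2% of cells, and *Vamp1* had the higher FPKM in 11 P1 and 2 P5 cells, 6.63% and 1.10% of the cells with either gene.

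The plasma membrane syntaxins were patchier. *Stx1a*, a partner of SNAP-25 (chr5:135023482-135051100, plus strand) was found in 54.7% of P1 and 81.9% of P5 cells, with a median FPKM of 3.59 and 37.3 and a maximum of 545 and 280. *Stx3*, the syntaxin of ribbon synapses, was found in 36.8% and 60.4% of cells.

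The sequence just before the start of transcription was read for 3 members, to set a plasma membrane SNARE gene and a vesicle gene beside one found in few cells. Of the 70 members, 54 had a start in the RefSeq promoter table (GRCm38.p6). Each stretch below is the 120 bases that end just before the more upstream of the RefSeq and GENCODE starts, on the strand of the gene, and capitals mark the GC-box core GGGCGG on either strand.
Stx1a (chr5:135023362-135023481, plus strand): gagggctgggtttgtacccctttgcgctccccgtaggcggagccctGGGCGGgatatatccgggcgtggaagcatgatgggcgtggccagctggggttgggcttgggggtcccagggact
Syn1 (chrX:20921005-20921124, minus strand): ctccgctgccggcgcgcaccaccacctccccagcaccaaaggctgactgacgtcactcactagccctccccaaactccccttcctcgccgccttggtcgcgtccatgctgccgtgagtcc
Vamp1 (chr6:125215431-125215550, plus strand): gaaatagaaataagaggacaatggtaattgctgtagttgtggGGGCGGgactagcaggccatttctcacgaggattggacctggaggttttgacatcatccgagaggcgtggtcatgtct
The stretches of *Stx1a* and *Vamp1* held 1 GC-box core each and that of *Syn1* held 0. Over windows from 250 bases before to 50 after each start, the core was found in 43 of the 54 members (79.6%) and in 38.2% of 27025 genes. It was found for 16 of 18 matched members present in at least 50% of the cells of both ages, and for 8 of 14 under 10% at both. The E-box CACGTG was found in 8 of 54 members (14.8%) and 8.09% of all genes, among them 0 of the 18 and 4 of the 14. Each gene was also given the GC content of its window of highest GC. The median over genes was 63.8% for the 18, 65.5% for the 14 and 53.3% for all genes, so the members and the remaining genes also differed in base composition.

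Syntaxins of other membranes were also common. *Stx7* and *Stx12*, which serve endosomes, had a mean FPKM of 157.4 and 107.6 over all kept cells and were among the 10 highest members. *Stx7* was found in 85.3% of P1 and 94% of P5 cells, against 54.7% and 81.9% for *Stx1a*. *Stx11*, *Stx19*, *Stxbp2*, *Stxbp3*, *Vamp5* and *Vamp8*, which work outside neuronal release, stayed under 10% of cells at each age.

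*Syt1*, the fast calcium sensor of synaptic release, led the synaptotagmins. It was found in 96.8% of P1 and 98.9% of P5 cells, at a median FPKM of 162.3 and 109.8 and a maximum of 4402 and 1787. *Syt2*, which does the same work at other fast synapses, was found in 3 P1 and 6 P5 cells, and *Syt1* had the higher FPKM in 99.5% and 99.4% of cells with either gene. *Syt4*, which lacks a full calcium site, was found in 92.6% and 97.8% of cells and exceeded *Syt1* in 27.5% and 30.2% of the cells with either. *Syt11* and *Syt5* completed the synaptotagmins with a mean FPKM above 100, at 121.7 and 135.5. *Syt11* carries stretches near-identical to other transcripts, so its own level is uncertain.

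**Figure D2:**
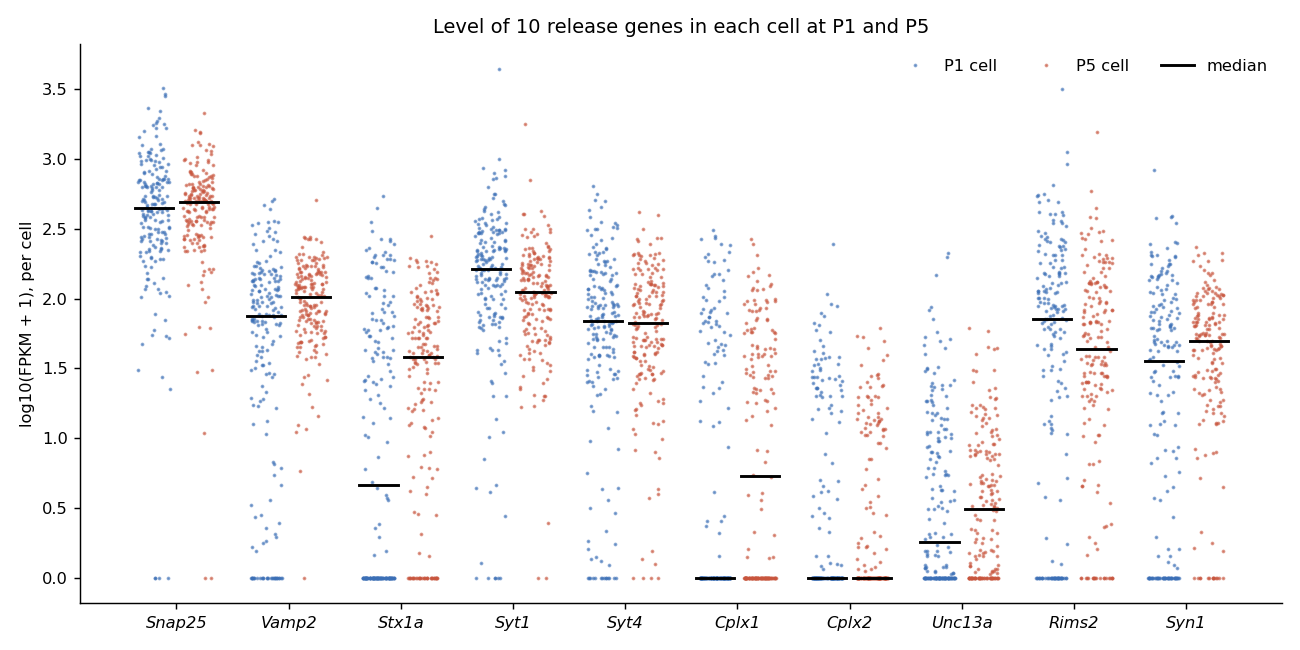
FPKM of 10 release genes in each kept cell, as log10(FPKM + 1), at P1 (blue) and P5 (red), with black bars at the medians. *Snap25* and *Syt1* were high in nearly every cell, whereas *Stx1a*, *Cplx1* and *Cplx2* were at 0 in many cells and *Unc13a* was low, with medians of 0.80 and 2.1.

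The regulators that ready the vesicle for fusion were found in fewer cells. *Cplx1* was found in 37.9% of P1 and 56% of P5 cells, and *Cplx2* in 39.5% and 44%. The 2 complexins were found together in 27.8% of P1 and 34.8% of P5 cells with either, and *Cplx1* had the higher FPKM in 58.3% (interval 48.7 to 67.4%) and 71.1% (interval 62.7 to 78.6%). The retinal complexins *Cplx3* and *Cplx4*, which belong to ribbon synapses, were found in 10 and 1 of all 372 cells. *Unc13a* (Munc13-1) was found in 62.1% and 72.5% of cells, at a median FPKM of 0.80 and 2.1, and *Unc13b* in 35.8% and 51.1%. *Unc13a* shares exons with *Colgalt1*, so its share and level are uncertain. The non-neuronal *Unc13d* was found in 0 P1 cells and 1 P5 cell.

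Of the active zone scaffolds, *Pclo* (Piccolo) was found in 92.1% and 97.8% of cells and had the higher FPKM than *Bsn* (Bassoon) in 66.5% and 77.7% of cells with either. *Bsn* was found in 63.7% and 69.2%. Of the RIM genes, *Rims2* was found in 77.9% and 89% and *Rims1* in 60% and 76.9%, and *Rims2* exceeded *Rims1* in 71.4% and 69.9% of cells with either.

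On the vesicle itself, *Rab3a* was near universal, in 98.4% and 98.9% of cells at a median FPKM of 420 and 354. It exceeded *Rab3c* in 94.2% and 98.9% of cells with either. *Rab3b*, found in 77.4% and 85.2%, had a mean FPKM of 144.2, the fifth highest of the members. *Syp* (synaptophysin) was found in 89.5% and 98.4% of cells, *Sv2a* in 81.6% and 94.5%, and *Syn1* in 75.3% and 92.3%. *Syn2* was found in 39.5% and 63.7%, and *Syn1* exceeded it in 74.5% and 82% of cells with either. *Syn1* shares exons with *Araf*, so its share and level are uncertain. *Sv2b*, in contrast to *Sv2a*, was found in 4 P1 and 12 P5 cells. *Syt8* was the member found in no cell, 0 of 372. A count of 0 allows a share of up to 0.806% when its limit is set at 3 cells, and the exact interval reaches 0.987%.

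Release draws on several parts at once, so the joint presence of 5 of them in a cell was counted: *Snap25*, *Vamp2*, *Syt1*, either of *Unc13a* and *Unc13b*, and either of *Cplx1* and *Cplx2*. Every one of these parts was found in 78 of 190 P1 cells (41.1%, interval 34 to 48.4%) and in 64.8% of P5 cells (interval 57.4 to 71.8%). After thinning each cell to 250000 fragments the shares were 34.7% and 61%. Thinned P5 cells also held more genes of any kind, a median of 6095 against 4645 at P1. Joint presence was not counted for sets of other genes. Among P1 cells with Y-linked fragments and no *Xist* the share was 38.5%, and among such P5 cells it was 67.5%. The share also differed by class of cell, but the intervals of the classes overlapped at each age. It was 52.6% at P1 and 55.2% at P5 in cells with both *Opn4* and *Pou4f2* fragments. In cells with *Opn4* and no *Pou4f2* it was 35.5% and 61.5%, and with *Pou4f2* alone 40.7% and 77.8%. With neither gene it was 33.3% (interval 17.3 to 52.8%) and 78.6% (11 of 14 cells, interval 49.2 to 95.3%). The class medians of genes in thinned cells ran from 4023 to 5024 at P1 and from 5501 to 6245 at P5. At least 4 of the 5 parts were found in 76.8% of P1 and 92.9% of P5 cells.

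The parts missing most often were the same at both ages. A complexin was found in 60.5% of P1 and 74.2% of P5 cells, and a Munc13 in 71.1% and 85.2%. The remaining 3 parts were found together in 81.1% and 97.8% of cells. A part that is not found in a cell may be present below what 1 fragment can show.

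Few members differed in level by 2-fold between ages. Of the 51 members with a mean pooled CPM of at least 10, 1 was at least 2-fold higher at P5 and 0 were at least 2-fold lower. Over all 9798 genes tested the shares were 2.01% and 2.07%. The median log2 ratio of the 51 members was 0.18, with 31 higher and 20 lower at P5, against -0.0040 over all genes. In mean FPKM 8 members were higher and 43 lower, with a median of -0.42, and the median of all genes was -0.56. The source of this shift of all genes was not tested. Relative to all genes, the median member was therefore 0.18 higher in CPM and 0.14 higher in FPKM. Among the Y-linked, *Xist*-free cells alone (26 at P1) the median member was at -0.03 and the median of all genes at 0.016.

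**Figure D3:**
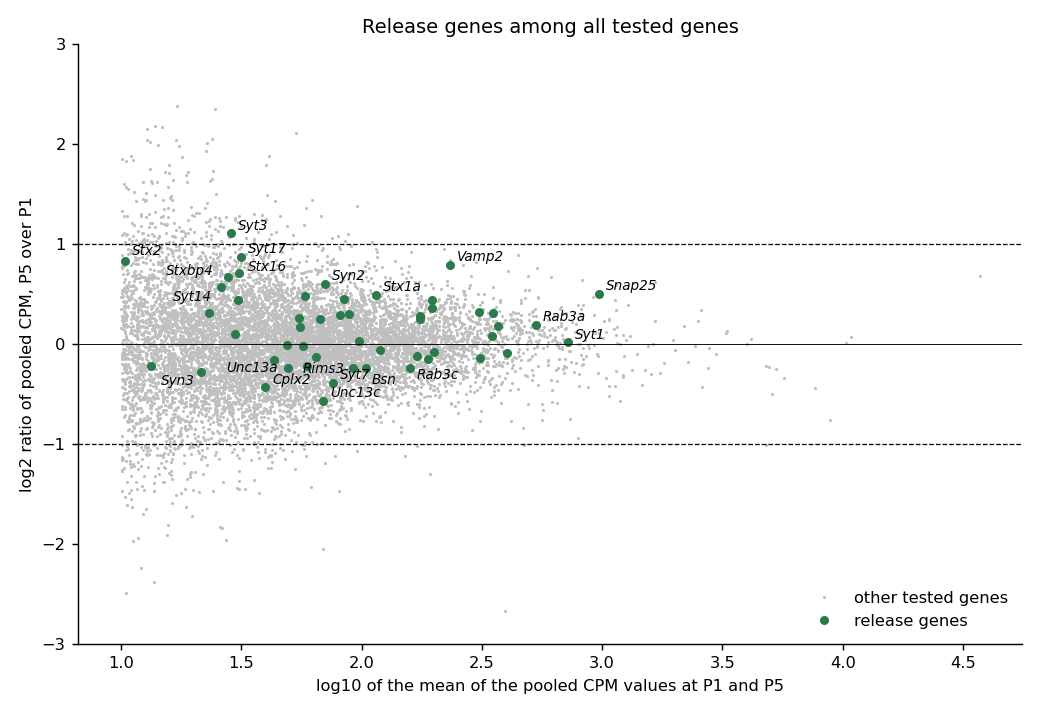
Log2 ratio of pooled CPM at P5 over P1 (y axis) against log10 of the mean pooled CPM (x axis) for the 51 release genes tested (green) and the other tested genes (grey, those within 3 log2 units). Dashed lines mark a 2-fold difference; *Syt3* is the release gene beyond them, and *Vamp2* and *Snap25* lie above 0 at high levels.

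*Syt3*, a high-affinity calcium sensor, was the member past the 2-fold line. It was found in 25 of 190 P1 cells (13.2%) and 62 P5 cells (34.1%), with a highest FPKM of 394 and 170. Its pooled CPM was 18.1 (interval 17.5 to 18.7) at P1 and 38.9 (interval 38 to 39.9) at P5, a log2 ratio of 1.11. The CPM intervals take each fragment as independent and do not cover the spread between cells. The ratio was between 0.94 and 1.16 in each of 4 runs of consecutive library numbers, and -0.032 between Y-linked, *Xist*-free cells. That subset has 26 P1 cells, and 13.3% of all genes were at least 2-fold higher in it. The ratio of *Syt3* was also under 2-fold in cells with at least 3000 genes (0.94), in *Opn4*+ *Pou4f2*- cells (0.63) and in mean FPKM (0.36, or 0.92 relative to all genes), and was 2.02 in cells without haemoglobin fragments. The next members, just under 2-fold, were *Syt17* (log2 ratio 0.87), *Stx2* (0.83) and *Vamp2* (0.79). On the lower side *Unc13c* (-0.57), *Cplx2* (-0.43) and *Syt7* (-0.39) came nearest to the line without reaching it.

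*Vamp2* had the largest ratio of the members above 100 CPM. Its pooled CPM was 170 at P1 and 295 at P5, or 1.73-fold higher, and 0.48 to 1.07 log2 units higher within each run. Between Y-linked, *Xist*-free cells its log2 ratio was 0.96. *Snap25* stood at 803 and 1139 CPM (log2 ratio 0.50), lower by 0.19 log2 units in mean FPKM before the all-gene shift is taken off. *Stx1a* stood at 95.3 and 133.9 CPM (log2 ratio 0.49) and *Syn1* at 166.7 and 225 (0.44). *Syn2* (0.60), *Stx16* (0.71), *Stxbp4* (0.67) and *Syt14* (0.57) completed the 8 highest ratios. *Stx16* and *Stxbp4* act in the trans-Golgi network and in insulin-regulated traffic, respectively, rather than at synapses. *Stxbp4* carries stretches near-identical to transcripts of 68 other genes, so its own level is uncertain.

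Other abundant members sat close to 0. *Syt1* was at 718 CPM at P1 and 725 at P5, a log2 ratio of 0.01 that ran from -0.24 to 0.17 over the runs. *Rab3a* was at 494 and 564 CPM (log2 ratio 0.19) and *Pclo* at 339 and 357 (0.07). *Rims2* was at 206 and 194 (-0.08), and *Syt4* at 313 and 388 (0.31).

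By role, the ratios leaned different ways. The 4 tested SNAP and VAMP members all had a higher CPM at P5 (median log2 ratio 0.40), although 3 of the 4 were lower in mean FPKM, which is shifted for all genes. Of 12 syntaxins 7 were higher (median 0.17), and of 10 vesicle proteins 7 (median 0.26). Of 9 active zone members 6 were lower, with a median of -0.22, and in mean FPKM all 9 were lower. Over all genes 49.6% were higher in CPM and 10.6% in mean FPKM. Among these *Unc13c* was at 82.3 CPM at P1 and 55.5 at P5, *Unc13a* at 53.4 and 45.1, *Bsn* at 113.3 and 95.9 and *Rims3* at 99.4 and 84.2. *Cplx2* (45.6 and 33.8 CPM), *Syn3* (23.5 and 19.3), *Syt7* (86.1 and 65.6) and *Rab3c* (171.9 and 145.2) completed the 8 lowest ratios. These groups were small, their differences were under 2-fold, and no test separates them from other genes.

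**Figure D4:**
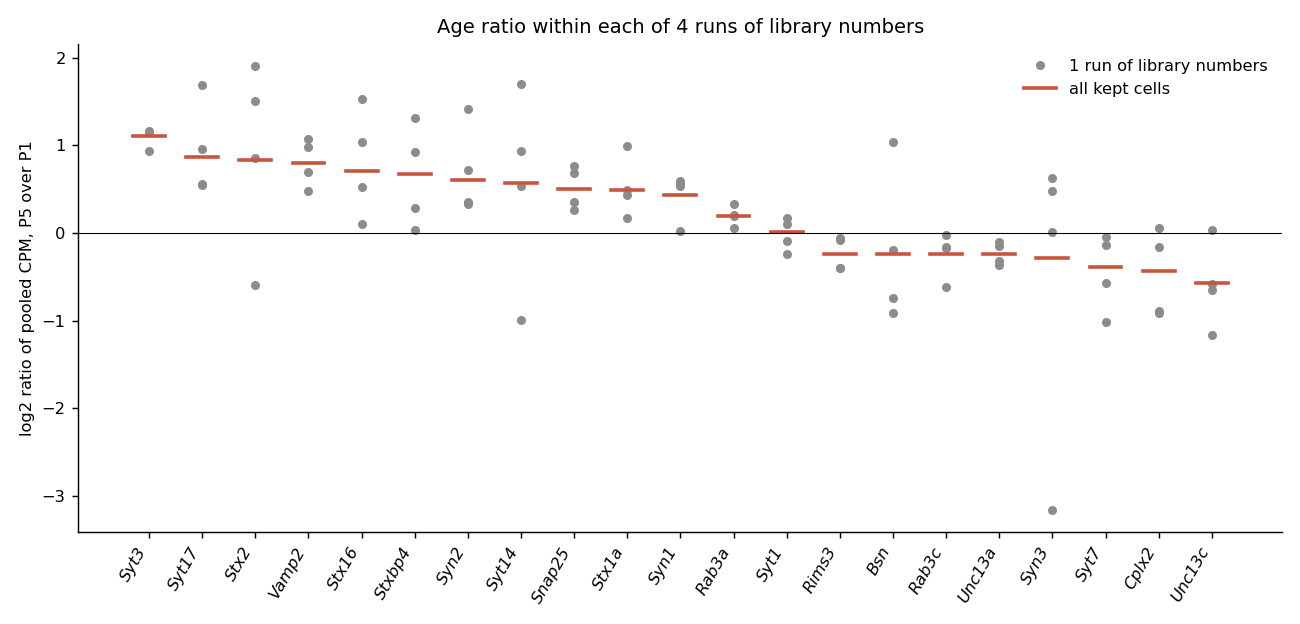
Log2 ratio of pooled CPM at P5 over P1 (y axis) for 21 release genes (x axis). Red bars use all kept cells and grey points each of 4 runs of 96 consecutive library numbers, with 44 to 48 kept cells per age; *Vamp2*, *Snap25* and *Stx1a* were above 0 in each run, and *Syn3* ran from -3.16 to 0.63.

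Libraries were numbered in 4 runs of 96, each with 48 P5 and 48 P1 cells, which allowed the age ratio to be read within a run. The runs are not known to be different animals. Of the 51 members, 14 were higher at P5 in every run, against 11.7% of all genes tested, and 5 were lower in every run, against 11% of all genes. The 14 included *Rab3a*, *Snap25*, *Stx16*, *Stx1a*, *Stxbp4*, *Syn1*, *Syn2*, *Syt17*, *Syt3*, *Syt5*, *Unc13b* and *Vamp2*. The 5 were *Rab3c*, *Rims3*, *Syt13*, *Syt7* and *Unc13a*. The members were also found in more cells than other genes, a median of 52.1% of thinned P1 cells against 35.3%, which bears on how steady a ratio is. *Syn1* shares exons with *Araf*, *Unc13a* with *Colgalt1* and *Syn3* with *Timp3*, and the library does not mark strand, so their fragments cannot be told apart from those of their neighbours.

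Shares of cells were called where intervals did not overlap, with no fold limit, so their counts cannot be set against those for level. After thinning to 250000 fragments, 25 of the 51 members (49%) had a higher share at P5 with intervals that did not overlap, and 0 had a lower share. Over all 9798 genes the shares were 38.6% and 0.112%. The rise in detection was thus shared by a large part of all genes, and thinned P5 cells also held more genes than thinned P1 cells, a median of 6095 against 4645. *Stx1a* rose from 53.7% (interval 46.3 to 60.9%) to 79.7% (interval 73.1 to 85.3%), *Vamp2* from 81.1% to 99.5%, *Syn1* from 71.6% to 91.8% and *Syn2* from 37.4% to 61%. *Cplx1* rose from 35.8% to 55.5%, *Syp* from 87.9% to 98.4% and *Sv2a* from 81.1% to 92.9%. *Syt7* was the tested member whose thinned share was lower at P5, at 80% and 79.1%. Among Y-linked, *Xist*-free cells 13 members (25.5%) passed, beside 25.3% of all genes, and among cells with no haemoglobin fragment (62 of them at P1) 7 members (13.7%) passed, beside 5.77%.

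Cells were next grouped by whether *Opn4* and *Pou4f2* fragments were found. Cells with *Opn4* and no *Pou4f2* correspond in markers to the ipRGCs that innervate the suprachiasmatic nucleus. At P1 there were 76 *Opn4*+ *Pou4f2*- cells, 57 *Opn4*+ *Pou4f2*+ cells, 27 with *Pou4f2* alone and 30 with neither. At P5 these numbers were 65, 58, 45 and 14. *Pou4f2*+ cells were thus present at both ages although the mice carried the Brn3bzDta allele. *Pou4f2* may go unsampled in a cell that makes it, so a *Pou4f2*- class may hold such cells. After thinning, *Opn4*+ *Pou4f2*- cells held a median of 4525.5 genes at P1 and 5772 at P5. The medians of *Opn4*+ *Pou4f2*+ cells were 5024 and 6197. The part of either in the class differences below was not tested.

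Between the *Opn4*+ classes 1 release gene passed the fold at both ages. Of 50 members tested, 0 were at least 1.5-fold higher in *Opn4*+ *Pou4f2*- cells at both ages, against 2.1% of 9113 genes, and 1 was at least 1.5-fold lower, against 3.48%. P1 taken alone gave 9 members higher, beside 13.4% of all genes, and 4 lower, beside 14.6%. P5 taken alone gave 2 higher (*Unc13b* and *Syt14*), beside 9.49%, and 1 lower, beside 14.2%. The sign of the ratio was the same at both ages for 28 of 50 members (56%), and for 53.9% of all genes.

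*Vamp3*, cellubrevin, a VAMP of endosomal recycling, was the lower member. At P1 it was found in 14 of 57 *Pou4f2*+ and 9 of 76 *Pou4f2*- *Opn4*+ cells, with 35.9 and 18.8 CPM, a log2 ratio of -0.93. At P5 it was found in 17 of 58 and 12 of 65 cells, with 30.6 and 16.9 CPM, a log2 ratio of -0.86. It was not called at either age by its share of cells, nor in Y-linked, *Xist*-free cells, and many other genes have transcripts near-identical to a stretch of it, so the level is uncertain.

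Of the 9 higher and 4 lower members at P1, *Vamp3* alone passed in the same direction at P5. *Syt3* was 4.71-fold higher in *Opn4*+ *Pou4f2*- than in *Opn4*+ *Pou4f2*+ cells at P1, at 28.3 and 6 CPM in 15 and 5 cells, and 0.98-fold at P5. *Stxbp4* had a log2 ratio of -1.10 at P1 and -0.09 at P5, and *Vamp2* -0.59 and 0.20. *Unc13a* (0.83 and 0.45), *Sv2c* (0.94 and 0.45) and *Stx16* (0.77 and 0.56) were higher at both ages and passed 1.5-fold at P1. By share of thinned cells, 0 of the 50 members were higher in *Opn4*+ *Pou4f2*- cells at P1, beside 0.0329% of all genes, and 0 were lower, beside 1.36%. At P5, 0 were higher, beside 0.011%, and 1 was lower, beside 2.08%. The lower one was *Stx7*, found in 58 of 58 *Pou4f2*+ and 56 of 65 *Pou4f2*- *Opn4*+ cells.

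**Figure D5:**
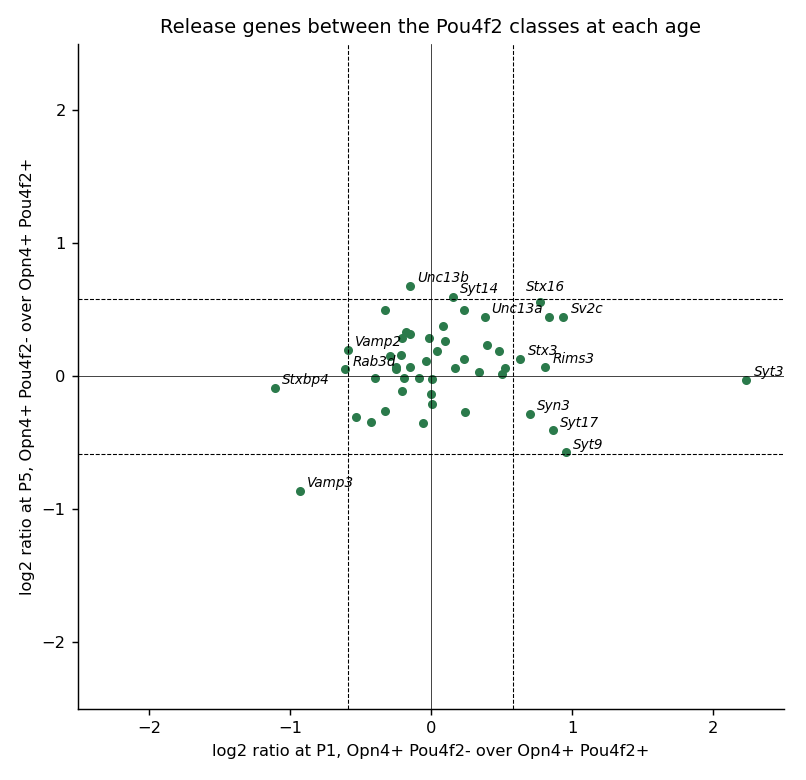
Log2 ratio of pooled CPM in *Opn4*+ *Pou4f2*- over *Opn4*+ *Pou4f2*+ cells at P1 (x axis) and at P5 (y axis) for the 50 release genes tested. Dashed lines mark 1.5-fold; *Vamp3* lies beyond them at both ages, and *Syt3* at 2.24 on the x axis and -0.03 on the y axis.

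Summed over all 70 members, release genes took a median per P1 cell of 7316 CPM in *Opn4*+ *Pou4f2*+, 7608 in *Opn4*+ *Pou4f2*-, 7738 in *Opn4*- *Pou4f2*+ and 6521 in *Opn4*- *Pou4f2*- cells. The P1 quartiles of these classes overlapped. At P5 the medians were 8217, 9088, 7035 and 9856 CPM, with quartiles of 7648 to 8926, 8320 to 9693, 5870 to 7814 and 6820.0 to 12670.3. The last class held 14 cells at P5. At P5 the interquartile range of *Opn4*+ *Pou4f2*- cells therefore lay above that of *Opn4*- *Pou4f2*+ cells, while single cells overlapped (5954 to 13011 and 3935 to 12278). *Snap25* stood at 1223 and 973 CPM in these classes, and *Syt1* (767 and 563), *Rab3a* (618 and 435) and *Vamp2* (356 and 200) were also higher in the former. These named genes do not stand for all 70 members, whose ratios in this contrast are not given. The share of cells with all 5 release parts was lower in the former, with intervals that overlapped. All of them were found in 61.5% of the former (interval 48.6 to 73.3%) and 77.8% of the latter (interval 62.9 to 88.8%). The former held a median of 6261 detected genes and the latter 6737. Cells of 1 class may come from few animals, and this contrast was neither planned nor tested.

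Within an age the levels of members were read against each other from cell to cell. Over the 13 members found in at least 80% of the cells of both ages, the median Spearman correlation of per-cell CPM over 78 pairs was 0.010 in P1 cells and 0.042 in P5 cells. The highest pair was *Sv2a* with *Vamp2* at P1 (0.21) and *Rab3a* with *Snap25* at P5 (0.33). Cells of an age may share an animal and differ in depth, so these are descriptions.

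A list of 74 other release and recycling genes was read the same way. Of these, 59 were tested: 0 were at least 2-fold higher at P5 and 1 lower, and 26 had a higher share of thinned cells, beside 2.01%, 2.07% and 38.6% of all genes. *Sh3gl3*, an endophilin of vesicle endocytosis, was the lower gene, at 76.6 and 38.1 CPM (log2 ratio -1.01), and was lower in 4 of 4 runs. *Cacna1a*, the P/Q-type calcium channel that feeds release, was at 26.1 and 14 CPM (-0.90), lower in 4 of 4 runs. *Sncg* (-0.58), *Sytl2* (-0.53) and *Snap29* (-0.40) were the next lowest. The highest ratios were those of *Ap2b1*, a clathrin adaptor (83.7 and 129.6 CPM, 0.63), *Scamp5* (0.63), *Rab27b* (0.57), *Slc17a6* (0.57) and *Sh3gl2* (0.42). *Slc17a6* encodes VGLUT2, which fills ganglion cell vesicles with glutamate, and stood at 284 and 421 CPM. By group, the median log2 ratio was 0.14 for 20 endocytosis genes, -0.27 for 3 calcium channels, -0.27 for 3 vesicular transporters, 0.08 for 5 SNARE recycling genes and -0.01 for 28 other vesicle and active zone genes.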

How the data were processed

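Polyadenylated RNA of single sorted cells was sequenced as 75 bp read pairs after Smart-seq2, which does not mark strand. The authors aligned reads to GRCm38.p6 (mm10) with HISAT2 2.1.0, sorted them with SAMtools 1.9 and ran Cuffquant and Cuffnorm of Cufflinks 2.2.1 (versions per the labels). The deposited gene tables hold FPKM values and scaled fragment counts (used as a signal), and the deposited cell table holds each cell's scale as a ratio. Scaled count times this ratio gave back fragments: 90.4% of positive values, and 95.6% of those of the members, were whole within 0.01. Annotation of the counting is not given in the sources used here.

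A gene was found in a cell at 1 fragment or more (0.99 allowing for rounding), and 2 P1 and 10 P5 cells under 1000 genes were left out. Genes with a mean pooled CPM of at least 10 were compared. Shares between ages were read after thinning each cell at random to 250000 fragments and called where exact Clopper-Pearson 95% intervals did not overlap. Poisson intervals were exact for fragments taken as independent. No P5 or P1 animal is named, so nothing was tested for significance. Doublets were not called, since cells were sorted singly. The calling steps were tested on simulated data. Python 3.11.15, scipy 1.17.1, pandas 2.3.3 and BLAST 2.17.0 were used.

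The members and gene lists were chosen with earlier results of these data known. Genes named are a fixed core of the machinery, the 10 members of highest mean FPKM, the 8 highest and 8 lowest age ratios, members at or nearest a fold line, members in no cell, paralog pairs, and the 5 highest and 5 lowest other release genes. Members outside this rule were named after their values were seen. Of the 70 gene IDs, 68 were in GENCODE M21, which gave coordinates and shared exons (17 members). For 16 members another gene has a transcript stretch of at least 100 bases at 95% identity. Isoform use was not analysed here. The values of 2 members are not reported here, and the release parts counted jointly in a cell were reduced to 5 without them after values had been seen.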

Additional observations from a re-analysis of the deposited data

How the results depend on the processing

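No paired analysis was possible because the results come from no test, cells carry no animal and replicate numbers only name cells. Age ratios within runs of library numbers are given instead. Over 816 ratios of the 51 members in 16 alternatives, 13.7% had the other sign. The limits of 1 and 50 CPM change only which genes are tested, so no ratio could change sign there. *Rab3c*, *Stx16*, *Stxbp4*, *Syt17*, *Unc13a* and *Vamp2* kept their sign in all 16. Near-identical stretches leave the level of *Stxbp4* uncertain, and exons shared with *Colgalt1* that of *Unc13a*. *Syt3* went from 1.11 to -0.032 (log2) in Y-linked, *Xist*-free cells. The causes below were not tested.

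Against 1 member at least 2-fold higher at P5, there were 0 in mean FPKM, 3 in mean FPKM less the all-gene median, 0 in cells with at least 3000 genes and 0 among genes of at least 50 CPM. Of all genes, 0.49%, 2.82%, 2.02% and 0.33% passed in these, in that order. There were 3 among genes of at least 1 CPM, 8 in Y-linked cells, 2 in *Opn4*+ *Pou4f2*- cells, 4 in cells without haemoglobin fragments, and 5, 2, 4 and 7 in runs 1 to 4. The shares of all genes there were 7.46%, 13.3%, 6.03%, 3.91%, 6.55%, 8.13%, 8.41% and 9.41%, against 2.01%. Against 0 lower, there were 4 at 1 CPM, 1 in Y-linked cells, and 1, 3 and 1 in runs 1, 3 and 4. Of all genes, 8.04%, 9.86%, 5.83%, 7.99% and 9.73% were lower in these, against 2.07%. Against 25 members with a higher share of cells, there were 13 in Y-linked cells, 5 in *Opn4*+ *Pou4f2*- cells and 7 in cells without haemoglobin, where 25.3%, 6.47% and 5.77% of all genes passed. Those subsets hold fewer cells, which widens the intervals.

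Between *Opn4*+ classes, 1 member was higher in mean FPKM (*Unc13a*), 1 in mean per-cell CPM (*Stx16*) and 1 at 1 CPM (*Syt12*), against 0. The shares of all genes higher in these were 2.06%, 2.08% and 4.94%, against 2.1%. Lower members were 2 at 1 CPM, 0 at 50 CPM and 0 in Y-linked cells, against 1. The shares of all genes lower in these were 6.62%, 0.91% and 5.75%, against 3.48%. Thinning to 50000 fragments left 4 members in 90% of P1 cells, against 7. The 5 release parts were found together in 32.1% of P1 and 56% of P5 cells from 5 fragments, and in 30.5% and 52.2% at 50000 fragments. Runs, haemoglobin-free cells and the shifted FPKM were added after seeing the data. At these depths a member at 0 in a cell may be present but unsampled.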
